A study of Sus scrofa with 32 samples.

Results

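Chaperones are proteins that help other proteins fold, keep them from clumping and hold them ready for use or disposal. The heat shock factors switch on their genes when unfolded protein builds up. The HSP90 and HSP70 machines, their J-domain (DNAJ) and nucleotide exchange partners, the small heat shock proteins and the ring-shaped chaperonin CCT work in the cytosol. HSPA9 and the HSPD1/HSPE1 chamber work in mitochondria, and HSPA5 and HSP90B1 in the endoplasmic reticulum. In skeletal muscle they fold myosin and actin, and the BAG3/HSPB8 complex helps to clear damaged proteins of the contractile lattice.

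The chaperones described here were the genes with a symbol of the HSP, DNAJ, CCT, BAG, HSF, FKBP or AHSA families, or TCP1 or STIP1. Of 17930 gene identifiers in the deposited tables, 78 carried such a symbol, and 72 of these had enough reads to be tested. By the compartment where the protein is known to work, 37 were cytosolic (34 tested), 7 mitochondrial (all tested), 16 belonged to the reticulum (all tested) and 18 to other places or more than 1 place (15 tested). AHSA1, CCT6B, CCT8L2, DNAJC22, DNAJC9 and HSF5 were not tested, with 2 to 173 reads over all libraries. A further 23 symbols of these families, HSPB1, HSPB3 and HSPB7 among them, had no matching identifier and are not analysed here.

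Loin muscle (longissimus dorsi) was taken from 32 pigs at an age of 6 months, 8 in each of 4 groups. All were labelled wild type and were kept under similar conditions on similar feed. The DLDPL pigs combined Duroc, Landrace and Dapulian, the LDPL pigs were crosses of Landrace and Dapulian, the DPL pigs were Dapulian, an indigenous Chinese breed, and the L pigs were Landrace, a lean commercial breed. Replicates of L are numbered separately from the rest. Any separate handling of these libraries and the breed itself therefore cannot be told apart wherever L is compared.

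Depth, rounded to 3 digits, was 21700000 to 29700000 reads per library. Levels below are RPKM (read counts scaled to gene length and to library size, here the TMM-adjusted one), and changes are log2 differences with their standard error (SE). A gene was called higher or lower at an adjusted p under 0.05 in edgeR's quasi-likelihood test with Benjamini-Hochberg adjustment over 12821 genes, which is the source of each adjusted p unless another tool is named. Only 2 of 8 muscle fibre markers had an identifier, so the tissue label could be checked only in part. These had a summed median of 36500 RPKM in DLDPL, 38900 in LDPL, 28200 in DPL and 58000 in L. The sum hides opposite directions: 1 was called higher and 1 lower in DPL against L. In LDPL and DLDPL against L, 0 were called. Immediate early genes, whose transcripts appear soon after a stimulus, differed alongside the chaperones: their summed level over 8 of 10 listed genes was 47.4 to 830 RPKM in DLDPL (median 369), 229 to 734 in LDPL (median 468), 386 to 1490 in DPL (median 770) and 17.8 to 86.7 in L (median 46.8). Of the 8, 7 were called higher in each of the 3 comparisons with L. The share of reads on mitochondrially encoded genes had a median of 23.5% in DLDPL, 23.2% in LDPL, 32.9% in DPL and 20.0% in L. With the mitochondrial share as a covariate, 36 chaperones were called higher and 3 lower in DPL against L, in place of 40 and 5. The part of the immediate early genes in the chaperone results was not tested.

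Chaperone genes took a larger share of the reads in the 3 groups with Dapulian ancestry than in L. The share was 0.612% to 1.73% in DLDPL (median 1.08%), 0.892% to 1.29% in LDPL (median 1.19%), 1.1% to 2.27% in DPL (median 1.24%) and 0.474% to 0.872% in L (median 0.534%). The LDPL and DPL ranges lay wholly above that of L, and the DLDPL range overlapped it. The cytosolic chaperones made most of the difference in level. Their summed level was 2130 to 5970 RPKM in DLDPL (median 4110), 3480 to 5750 in LDPL (median 4680), 4720 to 9270 in DPL (median 5710) and 1440 to 2410 in L (median 1790). Except for replicate 18 of DLDPL, which had the lowest value of the 24 libraries, all libraries with Dapulian ancestry exceeded every L library. HSPA1L, HSPB8 and HSP90AA1 held 24.0%, 19.2% and 13.4% of the cytosolic sum.

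The mitochondrial chaperones had a summed level of 435 to 685 RPKM in DLDPL (median 575), 545 to 800 in LDPL (median 577), 478 to 998 in DPL (median 702) and 372 to 581 in L (median 454). These ranges overlapped in every pair of groups. HSPE1 and HSPA9 held 43.5% and 21.2% of this sum. The reticulum chaperones summed to 186 to 223 RPKM in DLDPL (median 200), 191 to 282 in LDPL (median 216), 183 to 277 in DPL (median 229) and 153 to 182 in L (median 172). All 24 libraries with Dapulian ancestry lay above the 8 of L, but by less than for the cytosolic sum. HSP90B1, HSPA5 and DNAJB9 held 25.1%, 20.9% and 15.4% of the reticulum sum, so a few abundant genes set it.

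**Figure D1:**
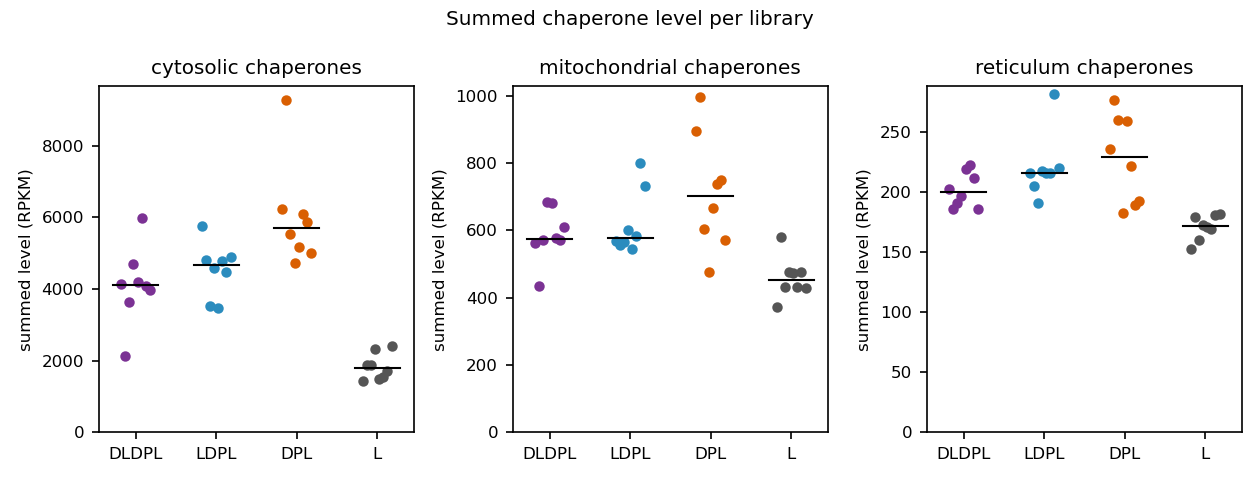
Summed level in RPKM (vertical axes, starting at 0) of the cytosolic, mitochondrial and reticulum chaperones, 1 point per library and 8 libraries per group, with a line at each group's median. The cytosolic medians are 4110 (DLDPL), 4680 (LDPL), 5710 (DPL) and 1790 RPKM (L), and the mitochondrial and reticulum sums lie closer together.

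Counted gene by gene, calls were more frequent among cytosolic than among reticulum chaperones in each comparison with L, a difference between compartments that was not tested. In DPL against L, 40 of the 72 tested chaperones were called higher and 5 lower, where 19.1% and 18.9% of all tested genes were called higher and lower. Of the 34 cytosolic chaperones, 26 were higher and 1 lower, and their median change was 1.06 on the log2 scale, against -0.02 for all tested genes. Of the 7 mitochondrial ones 5 were higher and 0 lower, with a median of 0.38. Among the 16 of the reticulum 5 were higher and 3 lower, with a median of -0.02. Among the 15 others 4 were higher and 1 lower, with a median of 0.19. The DPL and L ranges did not overlap for 23 chaperones higher and 1 lower in DPL, where 4.12% and 3.42% of all tested genes had such ranges. Of the 23, 19 were cytosolic.

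In LDPL against L, 35 chaperones were called higher and 5 lower, where 14.9% and 14.7% of all tested genes were called. The cytosolic counts were 25 higher and 1 lower with a median change of 0.64, the mitochondrial 2 and 0 with 0.26, the reticulum 4 and 3 with 0.09, and the others 4 and 1 with 0.08. The LDPL and L ranges did not overlap for 18 chaperones higher and 1 lower in LDPL, where 3.97% and 2.51% of all tested genes had such ranges. In DLDPL against L, 34 chaperones were called higher and 2 lower, where 11.6% and 10.3% of all tested genes were called. Here the cytosolic counts were 26 and 0 with a median of 0.53, the mitochondrial 2 and 0 with 0.28, the reticulum 4 and 1, and the others 2 and 1 with 0.08. Ranges did not overlap for 8 higher and 1 lower in DLDPL, where 2.44% and 1.54% of all tested genes had such ranges. Without replicate 18 of DLDPL, 32 were called higher and 3 lower. These 3 comparisons share the L libraries. Called higher in all 3 were 29 chaperones, of which 23 were cytosolic, 2 mitochondrial (HSPD1 and HSPA9) and 3 of the reticulum (HSPA5, HSPA13 and DNAJB9), and the last was the heat shock factor HSF2. Called lower in all 3 were DNAJC25 and FKBP15. Of all tested genes, 8.8% were called higher in all 3 and 7.07% lower.

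**Figure D2:**
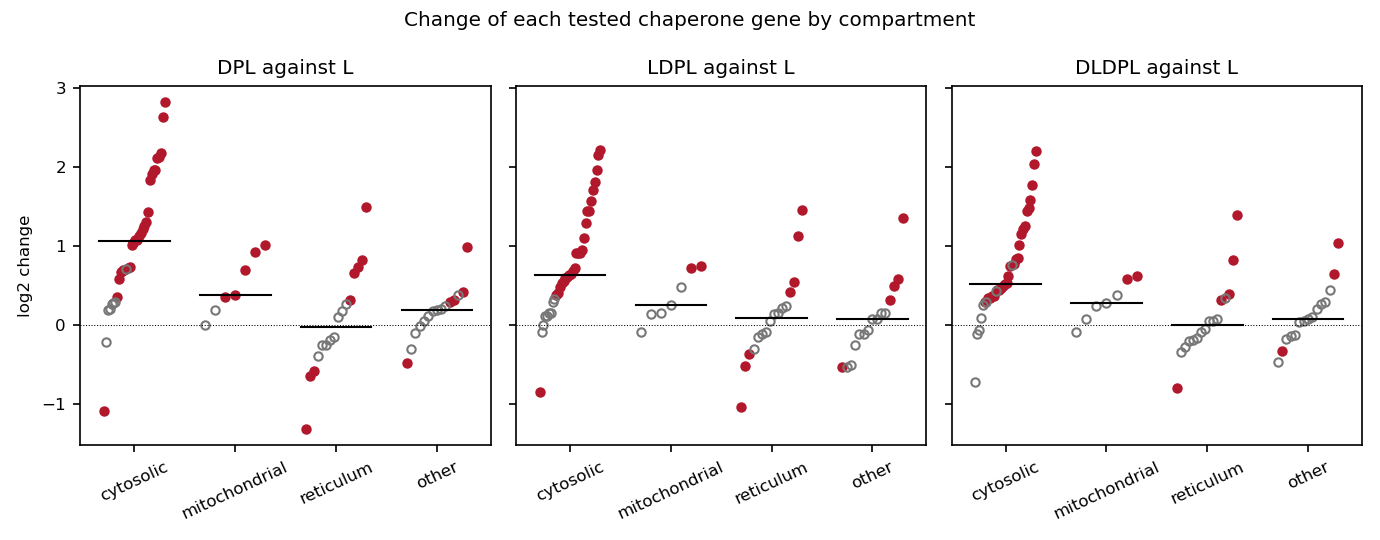
Log2 change (vertical axes) of the 72 tested chaperones in DPL, LDPL and DLDPL against L, by compartment (horizontal axes), with called genes filled in red, others open in grey and a line at each median. The cytosolic medians are 1.06, 0.64 and 0.53, and the reticulum panel columns hold genes on both sides of 0.

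The heat shock factors bind the promoters of chaperone genes. HSF1, the main activator under heat and other stress, had 21.8 to 35 RPKM in DLDPL (median 31.3), 24.9 to 33.6 in LDPL (median 31.5), 27.7 to 45.6 in DPL (median 33.1) and 21.0 to 38.3 in L (median 25.8). All 4 ranges overlapped. HSF1 was called higher in DPL against L, by 0.30 ± 0.11 (adjusted p = 0.0328), with adjusted p-values of 0.34 in LDPL and 0.513 in DLDPL. The DPL call was lost in 13 of 26 alternative settings. HSF2, which forms mixed complexes with HSF1 and is known for roles in development, showed a wider gap. It had 10.9 to 20.5 RPKM in DLDPL (median 13.7), 13.3 to 21.6 in LDPL (median 18.7), 8.69 to 21.6 in DPL (median 13.5) and 5.39 to 8.48 in L (median 7.02). Every library with Dapulian ancestry lay above every L library. HSF2 rose by 0.99 ± 0.15 in DPL (adjusted p = 4.44e-06), 1.36 ± 0.15 in LDPL (adjusted p = 5.13e-08) and 1.04 ± 0.15 in DLDPL (adjusted p = 6.59e-06), each against L.

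HSPH1 had the largest rise of the tested chaperones in each comparison with L. HSPH1 (ENSSSCG00000009334), an HSP110 protein that exchanges the nucleotide of HSP70 and helps to pull apart aggregates, had 9.35 to 73.4 RPKM in DLDPL (median 50.2), 33.1 to 75.0 in LDPL (median 47.7), 43.6 to 105 in DPL (median 70.4) and 6.89 to 16.8 in L (median 10.3). The LDPL and DPL libraries all lay above those of L, as did 7 of the 8 in DLDPL. In DLDPL the exception was replicate 18, with 9.35 RPKM against 39.8 or more in the other 7. HSPH1 rose 7.06-fold in DPL (adjusted p = 1.88e-09), 4.67-fold in LDPL (adjusted p = 1.85e-07) and 4.61-fold in DLDPL (adjusted p = 3.43e-07). Without that library the DLDPL change was 2.36 on the log2 scale in place of 2.21.

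HSPA1L (ENSSSCG00000030368) is an HSP70 gene, and its name comes from the reference table. HSP70 copies are nearly identical, and HSPA1A and HSPA1B had no identifier of their own here, so its reads cannot be assigned to 1 copy. It had the highest mean level of any member, with 176 to 2360 RPKM in DLDPL (median 837), 317 to 1660 in LDPL (median 1140), 1030 to 2370 in DPL (median 1560) and 66.1 to 698 in L (median 129). Only the DPL libraries were all above those of L, where replicates 5 and 10 had 698 and 624 RPKM. The level varied between pigs more than that of most members, with a biological coefficient of variation of 0.606, against a median of 0.227 over the cytosolic chaperones. Even so HSPA1L was 6.18-fold higher in DPL (adjusted p = 5.84e-05), 4.44-fold in LDPL (adjusted p = 0.000771) and 4.11-fold in DLDPL (adjusted p = 0.00187). HSP70.2, another copy, stayed at 0.17 to 1.33 RPKM over the 4 groups and was not called in any comparison with L.

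HSPA8, the constitutive HSP70 that also feeds chaperone-mediated autophagy, had 86.9 to 205 RPKM in DLDPL (median 149), 119 to 189 in LDPL (median 157), 120 to 322 in DPL (median 149) and 52.1 to 108 in L (median 86.0). The LDPL and DPL ranges lay above that of L. Its rise was 1.04 ± 0.18 in DPL (adjusted p = 2.63e-05), 0.92 ± 0.18 in LDPL (adjusted p = 0.000202) and 0.77 ± 0.18 in DLDPL (adjusted p = 0.00189). HSPA4, another HSP110 protein, rose by 1.30 ± 0.16, 0.95 ± 0.16 and 0.84 ± 0.16 in DPL, LDPL and DLDPL. HSPA12B, a distant HSP70 relative best known from endothelium, went the other way. It had 0.232 to 1.31 RPKM in DLDPL (median 0.808), 0.431 to 1.04 in LDPL (median 0.733), 0.222 to 1.11 in DPL (median 0.592) and 0.941 to 1.78 in L (median 1.37). The ranges overlapped, and HSPA12B was 2.13-fold lower in DPL (adjusted p = 0.00317) and 1.8-fold lower in LDPL (adjusted p = 0.0232), with an adjusted p of 0.064 in DLDPL. Of 3 endothelial markers tested, 1 was called lower in DPL, 2 in LDPL and 1 in DLDPL, and their summed median was 28.0 RPKM in DLDPL, 23.3 in LDPL, 21.1 in DPL and 30.3 in L. Fewer cells of a type and less RNA per cell cannot be told apart in whole muscle, and the part of endothelium in this result was not tested.

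J-domain proteins deliver clients to HSP70 and start its ATP cycle. Of the 12 tested members of classes A and B, 9 were higher in DPL, 6 in LDPL and 8 in DLDPL against L, and 0 were lower. Of all tested genes, 19.1%, 14.9% and 11.6% were called higher and 18.9%, 14.7% and 10.3% lower. These classes hold cytosolic, mitochondrial and reticulum genes. DNAJA1 had 17.2 to 99.4 RPKM in DLDPL (median 66.8), 50.7 to 120 in LDPL (median 77.2), 57.4 to 184 in DPL (median 109) and 19.4 to 47.5 in L (median 25.3). All libraries with Dapulian ancestry lay above those of L, except replicate 18 of DLDPL, which lay below the lowest of L. DNAJA1 was 3.9-fold higher in DPL (adjusted p = 2.86e-07), 2.72-fold in LDPL (adjusted p = 4.29e-05) and 2.37-fold in DLDPL (adjusted p = 0.000404). DNAJB1, the stress-inducible partner of HSP70, varied most between pigs of all members, with a coefficient of variation of 0.615. It had 4.38 to 115 RPKM in DLDPL (median 46.5), 11.2 to 93.2 in LDPL (median 45.5), 27.2 to 135 in DPL (median 54.5) and 7.51 to 39.4 in L (median 11.5). All 3 ranges overlapped that of L, although the rises of 2.11 ± 0.47, 1.57 ± 0.47 and 1.77 ± 0.47 in DPL, LDPL and DLDPL were called.

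DNAJB4, which is abundant in striated muscle, had 55.1 to 232 RPKM in DLDPL (median 131), 119 to 260 in LDPL (median 142), 112 to 497 in DPL (median 156) and 31.0 to 70.3 in L (median 51.7). LDPL and DPL did not overlap L. Its rise was 3.92-fold in DPL (adjusted p = 9.51e-07), 3.27-fold in LDPL (adjusted p = 1.43e-05) and 2.8-fold in DLDPL (adjusted p = 0.00015). DNAJB5 was 2.33-fold, 2.14-fold and 2.03-fold higher in DPL, LDPL and DLDPL, and none of the 24 libraries overlapped L. The J-domain class C, whose members have very different jobs, moved less. Of 18 tested, 4 were higher and 1 lower in DPL, 4 and 1 in LDPL and 2 and 1 in DLDPL. Of all tested genes, 19.1%, 14.9% and 11.6% were called higher and 18.9%, 14.7% and 10.3% lower. The class C counts were thus near these shares for higher calls and below them for lower calls. DNAJC2, a ribosome-bound chaperone of new chains, rose by 0.67 ± 0.11 in DPL (adjusted p = 1.31e-05), 0.69 ± 0.11 in LDPL (adjusted p = 1.5e-05) and 0.53 ± 0.11 in DLDPL (adjusted p = 0.00065), and was named here after its values were seen.

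HSP90 holds late folding intermediates such as kinases and steroid receptors. HSP90AA1 (ENSSSCG00000002535), the stress-responsive cytosolic form, had 261 to 735 RPKM in DLDPL (median 534), 335 to 796 in LDPL (median 580), 564 to 1230 in DPL (median 840) and 162 to 301 in L (median 247). All LDPL and DPL libraries were above all L libraries, and DLDPL overlapped L through replicate 18. HSP90AA1 was 3.75-fold higher in DPL (adjusted p = 4.38e-09), 2.44-fold in LDPL (adjusted p = 4.66e-06) and 2.22-fold in DLDPL (adjusted p = 3.61e-05). HSP90AB1, the constitutive form, had 90.0 to 165 RPKM in DLDPL (median 115), 101 to 157 in LDPL (median 125), 141 to 272 in DPL (median 183) and 70.0 to 139 in L (median 83.2). Only DPL was clear of L, where replicate 2 stood at 139 RPKM and the other 7 at no more than 91.9. HSP90AB1 rose by 1.08 ± 0.15 in DPL (adjusted p = 7.58e-07), 0.53 ± 0.15 in LDPL (adjusted p = 0.00599) and 0.44 ± 0.15 in DLDPL (adjusted p = 0.0265). Alternative settings lost the DPL call in 0 of 26, the LDPL call in 3 of 28 and the DLDPL call in 8 of 26.

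The HSP90 cochaperones STIP1, FKBP4 and FKBP5 were called higher in all 3 comparisons with L, and AHSA1 was not tested. FKBP8, a further FKBP protein that is counted with the mitochondria, was called in none of them. STIP1, which bridges HSP70 and HSP90, had 49.6 to 139 RPKM in DLDPL (median 94.5), 82.3 to 140 in LDPL (median 95), 94.3 to 213 in DPL (median 126) and 50.4 to 76.4 in L (median 57.8). Its LDPL and DPL ranges lay above that of L, and the rise was 2.25-fold in DPL (adjusted p = 6.13e-07), 1.66-fold in LDPL (adjusted p = 0.000554) and 1.54-fold in DLDPL (adjusted p = 0.00376). FKBP4 and FKBP5 are immunophilins that act on steroid receptor complexes, and FKBP5 is itself a target of the glucocorticoid receptor. FKBP5 had 22.2 to 110 RPKM in DLDPL (median 56.0), 52.9 to 141 in LDPL (median 88.1), 50.4 to 163 in DPL (median 88.5) and 13.2 to 46.6 in L (median 18.4). It rose 4.53-fold in DPL (adjusted p = 4.28e-07), 3.91-fold in LDPL (adjusted p = 3.67e-06) and 2.73-fold in DLDPL (adjusted p = 0.00031), and replicate 6 of DLDPL was the one library of the 24 within the L range. FKBP4 rose 2.12-fold in DPL (adjusted p = 3.7e-08), 1.57-fold in LDPL (adjusted p = 0.000121) and 1.39-fold in DLDPL (adjusted p = 0.00466).

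The small heat shock proteins bind unfolding clients without ATP, and BAG3 links HSPB8 to HSP70 and to autophagy. HSPB8 (ENSSSCG00000009844) had 486 to 957 RPKM in DLDPL (median 796), 696 to 1480 in LDPL (median 753), 793 to 2050 in DPL (median 1060) and 208 to 463 in L (median 320). Every library with Dapulian ancestry lay above every L library, and replicate 18 was lowest of the 24. HSPB8 was 3.57-fold higher in DPL (adjusted p = 2.89e-09), 2.71-fold in LDPL (adjusted p = 3.38e-07) and 2.33-fold in DLDPL (adjusted p = 7.95e-06). BAG3 (ENSSSCG00000010686) had 160 to 368 RPKM in DLDPL (median 223), 198 to 380 in LDPL (median 282), 221 to 630 in DPL (median 320) and 48.5 to 107 in L (median 78.9). It too was clear of L in all 3 groups, with rises of 4.38-fold in DPL (adjusted p = 7.02e-10), 3.5-fold in LDPL (adjusted p = 2.6e-08) and 2.99-fold in DLDPL (adjusted p = 3.84e-07). BAG1, a second BAG protein, had changes of 0.27, 0.12 and 0.30 in DPL, LDPL and DLDPL, none called. HSPB6, a small heat shock protein of striated and smooth muscle, had 16.8 to 28.2 RPKM in DLDPL (median 23.8), 12.8 to 22.3 in LDPL (median 17.6), 11.9 to 46.3 in DPL (median 28.0) and 10.8 to 26.5 in L (median 14.8). Its ranges overlapped throughout, and HSPB6 was called 1.62-fold higher in DPL than in L (adjusted p = 0.00947), with adjusted p-values of 0.987 in LDPL and 0.144 in DLDPL.

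The chaperonin CCT folds actin and tubulin in a ring of different subunits. Of its 7 tested subunits, 6 were higher in each of the 3 comparisons with L and 0 lower, and these comparisons share the L libraries. In DPL, LDPL and DLDPL, 19.1%, 14.9% and 11.6% of all tested genes were called higher and 18.9%, 14.7% and 10.3% lower. TCP1 had 35.9 to 47.2 RPKM in DLDPL (median 38.6), 34.3 to 51.6 in LDPL (median 40.1), 35.3 to 64.6 in DPL (median 44.6) and 24.9 to 34.8 in L (median 26.4). The DLDPL and DPL libraries were all above those of L, while 2 LDPL libraries lay within the L range. TCP1 was 1.67-fold higher in DPL (adjusted p = 1.37e-06), 1.48-fold in LDPL (adjusted p = 0.000124) and 1.44-fold in DLDPL (adjusted p = 0.000466). CCT5 rose by 1.02 ± 0.11 in DPL, 0.60 ± 0.11 in LDPL and 0.50 ± 0.11 in DLDPL, and CCT2 by 0.70 ± 0.13, 0.63 ± 0.13 and 0.44 ± 0.13. The subunit left out of this pattern was CCT7, named after its values were seen. It had 48.5 to 64.7 RPKM in DLDPL (median 52.0), 47.0 to 56.8 in LDPL (median 55.2), 55.2 to 84.3 in DPL (median 64.3) and 51.4 to 63.2 in L (median 56.5), with adjusted p-values of 0.0583 in DPL, 0.518 in LDPL and 0.679 in DLDPL.

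**Figure D3:**
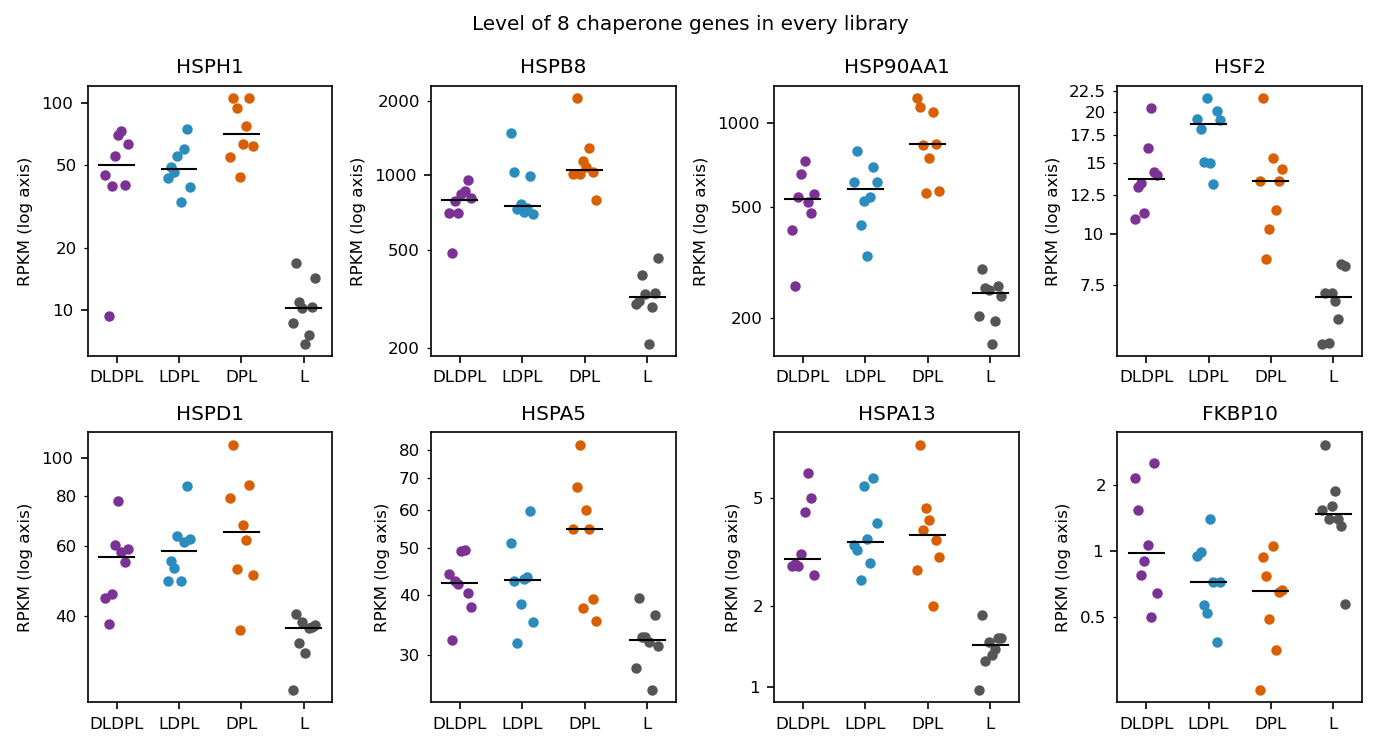
Level in RPKM (log axes) of HSPH1, HSPB8, HSP90AA1, HSF2, HSPD1, HSPA5, HSPA13 and FKBP10, 1 point per library and 8 libraries per group, with a line at each group's median. HSPH1 medians are 50.2 (DLDPL), 47.7 (LDPL), 70.4 (DPL) and 10.3 RPKM (L), whereas the FKBP10 medians are 0.987, 0.722, 0.658 and 1.47 RPKM in the same order.

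In the mitochondria, HSPA9 and HSPD1 were called higher in all 3 comparisons with L. HSPA9, the HSP70 of the matrix that also pulls in imported proteins, had 84.5 to 162 RPKM in DLDPL (median 117), 114 to 179 in LDPL (median 130), 120 to 254 in DPL (median 159) and 66.6 to 91.4 in L (median 83.5). The LDPL and DPL ranges were above that of L. HSPA9 was 2.03-fold higher in DPL (adjusted p = 5.18e-07), 1.66-fold in LDPL (adjusted p = 0.000116) and 1.5-fold in DLDPL (adjusted p = 0.00186). HSPD1, the HSP60 subunit, had 38.2 to 78.0 RPKM in DLDPL (median 56.5), 48.9 to 84.9 in LDPL (median 58.2), 36.8 to 108 in DPL (median 65.0) and 26.0 to 40.4 in L (median 37.3). Here only LDPL was clear of L, and the rises were 1.91-fold in DPL (adjusted p = 3.1e-05), 1.68-fold in LDPL (adjusted p = 0.000672) and 1.54-fold in DLDPL (adjusted p = 0.00525). HSPE1, its HSP10 lid, had 158 to 326 RPKM in DLDPL (median 248), 217 to 380 in LDPL (median 242), 156 to 484 in DPL (median 301) and 119 to 320 in L (median 190). Its groups overlapped, and HSPE1 was called in DPL, by 0.70 ± 0.20 (adjusted p = 0.00536), with adjusted p-values of 0.0617 in LDPL and 0.167 in DLDPL.

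DNAJA3, the J-domain partner of HSPA9, rose by 0.38 ± 0.09 in DPL (adjusted p = 0.00152), with adjusted p-values of 0.208 in LDPL and 0.59 in DLDPL. DNAJC11, a protein of the cristae organising system, rose there by 0.36 ± 0.12 (adjusted p = 0.0211). DNAJC19, of the import motor, and FKBP8, an outer membrane anchor, were called in no comparison with L, with changes from -0.09 to 0.28. The DPL count is the one that moved with scaling: of the 7 genes, 5 were called by the main test, 3 with the mitochondrial read share as a covariate and 2 with scaling to total reads. HSPA9 and HSPD1 kept their call in every alternative run for the 3 comparisons with L. The mitochondrial read share was 22.2% to 37.3% in DPL and 17.3% to 24.8% in L, and its part in these calls was not tested beyond that covariate.

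Of the 16 reticulum chaperones, 8 were called in no comparison with L. HSPA5 (BiP), the main HSP70 of the reticulum and the sensor-binding partner of the unfolded protein response, had 32.1 to 49.5 RPKM in DLDPL (median 42.3), 31.7 to 59.8 in LDPL (median 42.9), 35.3 to 82.0 in DPL (median 54.8) and 25.3 to 39.4 in L (median 32.2). Its ranges overlapped in all 3 pairs with L. HSPA5 was 1.67-fold higher in DPL (adjusted p = 0.00014), 1.34-fold in LDPL (adjusted p = 0.0254) and 1.31-fold in DLDPL (adjusted p = 0.0486). The LDPL call was lost in 8 of 28 alternative settings and the DLDPL call in 18 of 26. HSP90B1 (GRP94), the reticulum HSP90, had 37.1 to 59.4 RPKM in DLDPL (median 48.1), 44.2 to 78.9 in LDPL (median 53.4), 37.7 to 94.9 in DPL (median 68.4) and 32.0 to 46.8 in L (median 36.5). It rose 1.77-fold in DPL (adjusted p = 5.98e-05) and 1.47-fold in LDPL (adjusted p = 0.00553), with an adjusted p of 0.102 in DLDPL.

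DNAJB9 and HSPA13, with lower levels than HSPA5 and HSP90B1, separated L from the other groups more cleanly. DNAJB9 (ERdj4), a target of the unfolded protein response that restrains its sensor, had 28.1 to 44.0 RPKM in DLDPL (median 33.0), 32.2 to 62.5 in LDPL (median 39.0), 23.9 to 40.8 in DPL (median 27.2) and 15.1 to 23.6 in L (median 19.0). HSPA13 (STCH), a microsomal HSP70 relative, had 2.59 to 6.19 RPKM in DLDPL (median 2.99), 2.50 to 5.93 in LDPL (median 3.45), 2 to 7.90 in DPL (median 3.65) and 0.973 to 1.85 in L (median 1.43). For both genes, none of the 24 libraries with Dapulian ancestry overlapped L. DNAJB9 rose by 0.66 ± 0.14 in DPL (adjusted p = 0.000219), 1.13 ± 0.14 in LDPL (adjusted p = 2.11e-07) and 0.83 ± 0.14 in DLDPL (adjusted p = 4.04e-05). HSPA13 was 2.82-fold, 2.75-fold and 2.65-fold higher in DPL, LDPL and DLDPL (adjusted p = 4.17e-06, 1.04e-05 and 3.15e-05). DNAJB11, a BiP partner, was called in DPL and DLDPL by 0.32 in each. DNAJC3 and DNAJC10, further J-domain partners of BiP, were not called, with changes from -0.25 to 0.16.

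The 3 reticulum genes called lower in DPL were FKBP10, FKBP9 and DNAJC25, a share of 18.8% against 18.9% of all tested genes. FKBP10, which assists collagen folding and crosslinking, had 0.501 to 2.53 RPKM in DLDPL (median 0.987), 0.386 to 1.40 in LDPL (median 0.722), 0.232 to 1.06 in DPL (median 0.658) and 0.573 to 3.07 in L (median 1.47). The ranges overlapped, and FKBP10 was 2.47-fold lower in DPL (adjusted p = 0.00261) and 2.04-fold lower in LDPL (adjusted p = 0.0184), with an adjusted p of 0.487 in DLDPL. FKBP9 had 5.11 to 7.54 RPKM in DLDPL (median 6.46), 5.14 to 7.50 in LDPL (median 5.66), 4.26 to 6.19 in DPL (median 4.96) and 6.76 to 8.58 in L (median 7.30). All DPL libraries were below all L libraries. FKBP9 was 1.49-fold lower in DPL (adjusted p = 1.3e-05) and 1.28-fold lower in LDPL (adjusted p = 0.00418), with an adjusted p of 0.117 in DLDPL. Fibroblast markers moved with both: 3 of the 4 tested were called lower in DPL and in LDPL and 0 in DLDPL. Their summed level was 332 to 657 RPKM in DLDPL (median 475), 216 to 577 in LDPL (median 417), 172 to 558 in DPL (median 309) and 414 to 666 in L (median 543), and their part in the FKBP results was not tested.

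DNAJC25, a membrane J-domain protein, had 2.47 to 4.61 RPKM in DLDPL (median 3.22), 2.93 to 5.63 in LDPL (median 3.80), 2.76 to 5.24 in DPL (median 3.44) and 3.6 to 7.30 in L (median 5.94). It fell 1.56-fold in DPL (adjusted p = 0.00293), 1.44-fold in LDPL (adjusted p = 0.0179) and 1.73-fold in DLDPL (adjusted p = 0.000915), with overlapping ranges. FKBP15, an immunophilin tied to endosome transport, had 3.41 to 4.39 RPKM in DLDPL (median 3.90), 2.58 to 4.31 in LDPL (median 3.36), 2.81 to 4.63 in DPL (median 3.39) and 4.40 to 5.39 in L (median 4.88). All DLDPL and LDPL libraries were below all L libraries. FKBP15 fell by 0.48 in DPL (adjusted p = 0.00022), by 0.53 in LDPL (adjusted p = 0.000114) and by 0.33 in DLDPL (adjusted p = 0.0138) on the log2 scale.

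In all, 23 of the 72 tested chaperones were called in none of the comparisons with L, with log2 changes from -0.53 to 0.71. They were 5 of the 34 cytosolic genes (BAG1, CCT7, DNAJB13, HSP70.2 and HSPBP1), 2 of the 7 mitochondrial, 8 of the 16 reticulum and 8 of the 15 other genes. The reticulum genes among them included DNAJB12, DNAJB14, DNAJC1, DNAJC16, DNAJC18 and FKBP7. The compartments differed in level too: the median over genes of the mean RPKM was 59.1 for cytosolic, 54.5 for mitochondrial and 6.47 for reticulum chaperones, against 3.46 for all tested genes.

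**Figure D4:**
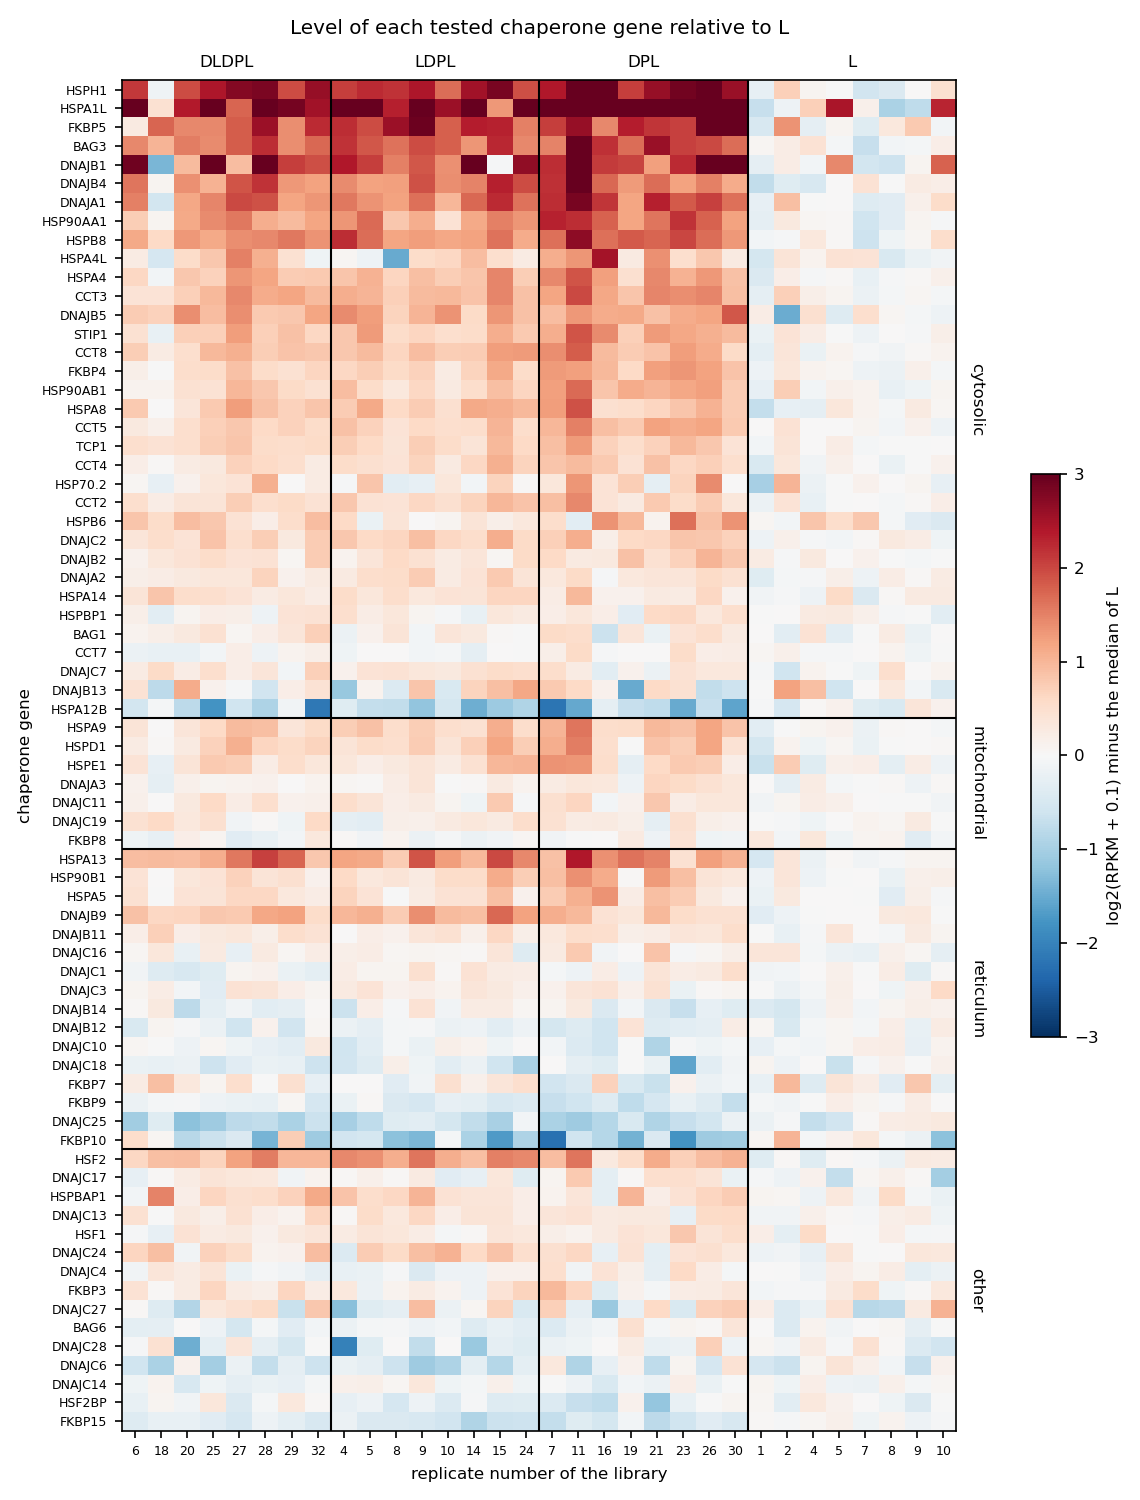
Log2(RPKM + 0.1) of each tested chaperone (rows, 72 genes by compartment and by their change in DPL against L) in each library (columns, by group and replicate number), minus the median of the 8 L libraries, with red above and blue below it. Most of the upper cytosolic rows are red in the libraries with Dapulian ancestry and paler or blue in replicate 18 of DLDPL, and the lowest rows of the reticulum block, such as FKBP10 and FKBP9, are blue in most DPL libraries.

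Genes outside these families that work with chaperones were counted from a list of known partners. Among 14 tested cytosolic partners, 5 were higher and 1 lower in DPL, 4 and 1 in LDPL and 3 and 0 in DLDPL against L. Of all tested genes, 19.1%, 14.9% and 11.6% were called higher and 18.9%, 14.7% and 10.3% lower. Their median changes were 0.07, 0.06 and 0.02 on the log2 scale. CHORDC1, an HSP90 cochaperone, rose by 1.55 ± 0.21 in DPL (adjusted p = 5.74e-07), 1.11 ± 0.21 in LDPL (adjusted p = 0.000122) and 1.09 ± 0.21 in DLDPL (adjusted p = 0.000251). PTGES3 (p23), which stabilises closed HSP90, rose by 0.64 ± 0.14 in DPL (adjusted p = 0.00076) and 0.58 ± 0.14 in LDPL (adjusted p = 0.00259). SMYD1, a methyltransferase of striated muscle that works with HSP90 in myosin assembly, fell by 1.29 in DPL (adjusted p = 1.3e-06) and by 0.85 in LDPL (adjusted p = 0.000519), while UNC45B, the myosin chaperone, changed by -0.10, -0.20 and -0.33 in DPL, LDPL and DLDPL with no call. Of 5 tested mitochondrial partners, 4 were higher in DPL (TRAP1, GRPEL2, TIMM44 and AFG3L2) and 0 in LDPL and DLDPL by edgeR. In each of LDPL and DLDPL, 2 were higher at an unadjusted p under 0.05 and DESeq2 called 1, while limma called 0 in all 3 comparisons, DPL included. At that unadjusted threshold, 2494 of the 12821 tested genes were higher in LDPL and 2250 in DLDPL. DESeq2 called 2066 and 1665 of them higher. Of 14 tested reticulum partners, 3 were higher and 1 lower in DPL, 2 and 0 in LDPL and 1 and 0 in DLDPL. The higher counts were near the shares of all tested genes. The lower counts were below theirs, which were 18.9%, 14.7% and 10.3%. By limma, 0 were called higher in all 3 comparisons. CANX, a lectin chaperone, was the one called in all 3, by 0.50 ± 0.10, 0.35 ± 0.10 and 0.32 ± 0.10, and ERO1B, an oxidase for disulfide formation, fell by 0.81 in DPL (adjusted p = 0.00139).

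Within the groups with Dapulian ancestry the differences were smaller. The group means were in the order DPL, LDPL, DLDPL, L from high to low for 30 of the 72 chaperones, and for 21 of the 34 cytosolic ones. The mean was highest in DPL for 44 and lowest in L for 50. These orders were not counted over all tested genes, so whether they are particular to chaperones cannot be told. The step from LDPL to DLDPL in this order was not called for any chaperone. In LDPL against DPL, 0 chaperones were called higher and 3 lower by edgeR, where 1.29% and 1.56% of all tested genes were called. At an unadjusted p under 0.05 the counts were 3 higher and 20 lower, where 1035 and 1222 of the 12821 tested genes were higher and lower. DESeq2 called 1 higher and 6 lower, where it called 270 and 347 of all tested genes. For limma on log2(RPKM + 1) the counts were 0 and 0, where it called 133 and 51 of all tested genes. The 3 were the cytosolic HSP90AB1 (-0.55 ± 0.15, adjusted p = 0.0368), FKBP4 (-0.43 ± 0.12, adjusted p = 0.0473) and CCT5 (-0.43 ± 0.11, adjusted p = 0.0349). Each lost its call in 12 or more of 26 alternative settings.

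In DLDPL against DPL, 1 chaperone was called higher and 6 lower, where 1.98% and 2.12% of all tested genes were called. The 6 were all cytosolic and belonged to the HSP90 machine, the chaperonin and the small heat shock proteins. HSP90AA1 fell 1.69-fold (adjusted p = 0.0172), HSP90AB1 1.55-fold (adjusted p = 0.0097), HSPB8 1.53-fold (adjusted p = 0.0397), FKBP4 1.52-fold (adjusted p = 0.00328), STIP1 1.46-fold (adjusted p = 0.0399) and CCT5 1.44-fold (adjusted p = 0.00538). FKBP9 was 1.3-fold higher (adjusted p = 0.0198), and 2 of 4 fibroblast markers were also called higher in DLDPL. All 7 overlapped between the groups. Without replicate 18 of DLDPL, 1 was higher and 4 lower, and without replicate 19 of DPL, 1 and 13. With the mitochondrial read share as a covariate 0 were higher and 3 lower, and with scaling to total reads 1 was higher and 0 lower.

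In DLDPL against LDPL, 0 chaperones were called in either direction by edgeR, as were 0.0% of all tested genes. At an unadjusted p under 0.05 the counts were 3 higher and 5 lower, where 542 and 427 of the 12821 tested genes were higher and lower. DESeq2 and limma called 0 chaperones. Of all tested genes, DESeq2 called 26 higher and 7 lower, and limma called 0. Changes ran from -0.52 ± 0.27 for FKBP5 to 0.70 ± 0.34 for FKBP10, and 70 of the 72 were within 0.5 log2 units of 0. HSPH1 differed by -0.02 ± 0.25, HSP90AA1 by -0.13 ± 0.19, HSPD1 by -0.13 ± 0.16 and HSPA5 by -0.03 ± 0.14. The smallest adjusted p was 0.17, for DNAJC1, a membrane J-domain protein of the reticulum that is named after its values were seen.

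The level in the LDPL cross was also set against the midpoint of its parent breeds on the log2 scale. LDPL exceeded the midpoint in 11 chaperones and fell short of it in 1, where 5.13% and 2.99% of all tested genes were called. HSF2 was 0.87 ± 0.12 above the midpoint (adjusted p = 3.57e-05) and DNAJB9 0.79 ± 0.11 (adjusted p = 3.46e-05). For both, the LDPL mean was above that of either parent: HSF2 averaged 17.7 ± 2.9 RPKM in LDPL, 13.6 ± 3.92 in DPL and 6.89 ± 1.19 in L, and DNAJB9 averaged 42.3 ± 9.87 in LDPL, 30.7 ± 6.66 in DPL and 19.4 ± 2.86 in L (SD, n = 8 each). The differences between LDPL and DPL were not called, at adjusted p-values of 0.164 for HSF2 and 0.0528 for DNAJB9. FKBP5 was 0.88 ± 0.23 above the midpoint (adjusted p = 0.015), HSPH1 0.81 ± 0.21 (adjusted p = 0.0155), BAG3 0.74 ± 0.16 (adjusted p = 0.00297), DNAJB4 0.73 ± 0.22 (adjusted p = 0.0377), HSPA13 0.71 ± 0.19 (adjusted p = 0.0148) and HSPB8 0.52 ± 0.15 (adjusted p = 0.0263). In these 6, LDPL lay nearer to DPL than to L, and DNAJA2, DNAJC2 and DNAJC24 made up the 11. FKBP15 lay 0.29 ± 0.09 below the midpoint, a change of -0.29 (adjusted p = 0.0315). The calls of HSF2, DNAJB9 and BAG3 held in all 34 alternative settings. DNAJB4 lost its call in 12 of them, FKBP15 in 9, HSPB8 in 6, HSPA13 in 4, HSPH1 in 3 and FKBP5 in 2. Leaving out replicate 15 of LDPL, which had the highest value of that group for 25 of 72 chaperones, left 4 calls, and leaving out replicate 9 left 7. Immediate early genes again moved alongside, with 3 of 8 called above the midpoint.

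Single libraries stood apart within groups. Replicate 18 of DLDPL had the lowest level of its group for 35 of the 72 chaperones. Of the 40 chaperones called higher in DPL than in L, this library exceeded every L library in 11. The other DLDPL libraries did so in 24 to 34 and the LDPL libraries in 24 to 35. The DPL libraries did so in 29 to 37. The 40 were chosen by their levels in these same DPL and L libraries. That choice raises the counts, those of DPL above all, so the DPL counts are no yardstick for the other groups. Its summed immediate early level was 47.4 RPKM, near the L median of 46.8, and those of the other 7 DLDPL libraries were 224 RPKM or more. It was the shallowest DLDPL library, with 22400000 reads (rounded). Its mitochondrial read share was 24.7% and its gene coverage 89.2%, where the group medians were 23.5% and 90.4%. Replicate 11 of DPL had the highest level of its group for 28 chaperones and the highest immediate early sum of all libraries, 1490 RPKM. Without it, 39 chaperones were higher and 5 lower in DPL against L. In L, replicate 2 had the highest level for 25 of the 72 chaperones and replicate 1 the lowest for 22. Chaperone genes took 0.872% of the reads in L replicate 2, the highest share in L, with 0.728% in replicate 5 next.

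HSPH1 was compared with other chaperones within groups. Over the 32 libraries, the deviations of HSPH1 from its group mean (in log2 CPM, read counts scaled to library size) were compared with 6 chaperones and with the mitochondrial read share, by permutation within groups with Benjamini-Hochberg adjustment over the 7 relations. With HSPD1, of another compartment, Pearson's r was 0.633 (permutation p = 5e-05, adjusted 0.00035) and Spearman's rho 0.645 (permutation p = 0.0002, adjusted 0.0014). Within groups r was 0.781 in DLDPL, 0.808 in LDPL, 0.647 in DPL and 0.541 in L, and without the pair of libraries farthest from the median of HSPH1 it was 0.656. With HSP90AA1, r was 0.691 (permutation p = 0.00013, adjusted 0.00045) and rho 0.561 (permutation p = 0.0017, adjusted 0.0039), and r was 0.612 without that pair. With the reticulum HSPA5, r was 0.498 (permutation p = 0.0012, adjusted 0.0021) and rho 0.497 (permutation p = 0.0052, adjusted 0.0091), and r was 0.452 without that pair.

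BAG3 gave r = 0.596 (permutation p = 0.00034, adjusted 0.00079) and rho = 0.6 (permutation p = 0.00056, adjusted 0.002), with 0.545 without the pair. HSPA8 gave r = 0.524 (permutation p = 0.0043, adjusted 0.006) and rho = 0.431 (permutation p = 0.017, adjusted 0.024), with 0.405 without the pair. Its r was 0.88 within DLDPL, 0.651 within LDPL and 0.428 within DPL, but -0.0119 within L. For DNAJB1 r was 0.566 (permutation p = 0.012, adjusted 0.014) and rho 0.407 (permutation p = 0.029, adjusted 0.033). Within groups r was 0.793 in DLDPL, 0.539 in DPL and 0.603 in L, but -0.366 in LDPL. Over all groups r was 0.223 without the farthest pair of libraries, so the pooled value depended largely on that pair. The mitochondrial read share had r = -0.126 (permutation p = 0.55, adjusted 0.55) and rho = -0.144 (permutation p = 0.45, adjusted 0.45), so that no relation with HSPH1 was detected.

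**Figure D5:**
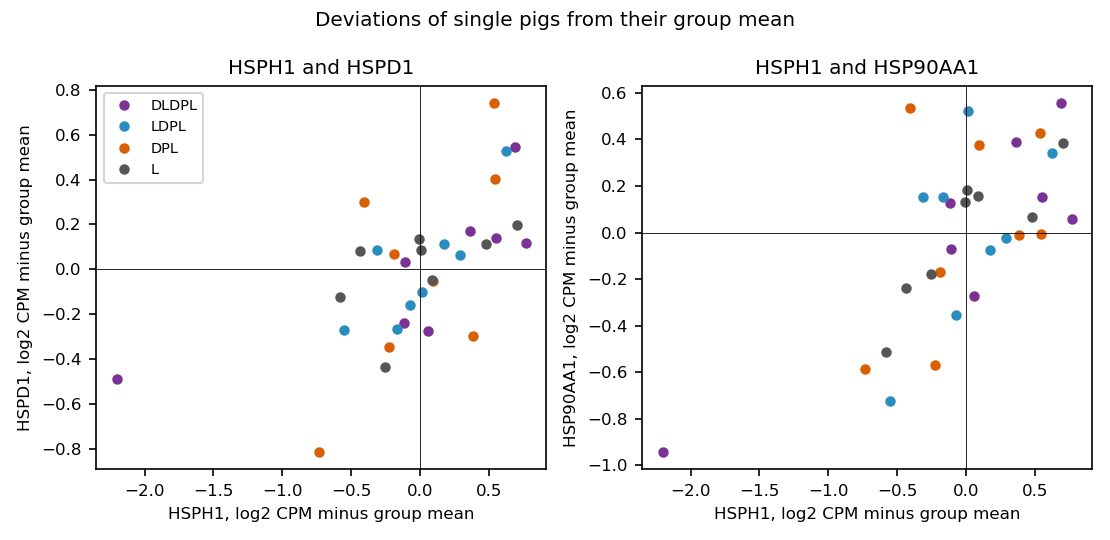
Deviation of HSPD1 (left, vertical axis) and HSP90AA1 (right, vertical axis) against that of HSPH1 (horizontal axes), all as log2 CPM minus the group mean, 1 point per library coloured by group. The points rise together, with r = 0.633 for HSPD1 and 0.691 for HSP90AA1 over 32 libraries, and the point at the far left is replicate 18 of DLDPL.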

How the data were processed

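RNA-seq of 32 pig muscles was deposited as 1 gene table per library. Per the file headers, the deposited counts are the number of uniquely mapped reads on each gene, and a gene missing from a table was given 0. The RPKM values the authors deposited equal these counts divided by gene length and library total, with relative deviations up to 2.2e-14. Coverage of each gene, also deposited by the authors (highest value 104.53), served only to check quality, with medians over long genes of 84.0% to 92.1% per library. Bowtie 0.12.2 and Cufflinks are the tools given in the submitters' processing notes, along with mm8, a build of the mouse genome, while the identifiers are those of pig genes. The pig build is not given in the sources used here, and positions are not reported. As only unique reads were counted, levels of near-identical copies such as the HSP70 genes are uncertain. The library kit does not mark the strand, so overlapping antisense genes cannot be told apart.

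A reference table named 10836 of 17930 identifiers (60.4%). The filter filterByExpr in edgeR 4.0.16, with a minimum of 10 reads and a minimum total of 15, left 12821 genes holding 99.97% of all reads. After TMM scaling, a quasi-likelihood model of the 4 groups was fitted (common biological coefficient of variation 0.285), and the fit was tested on simulated data. Tests were two-sided, over the 6 pairs of groups and LDPL against the midpoint of DPL and L. Alternatives were DESeq2 1.42.0, limma 3.58.1 on log2(RPKM + 1) and log2(RPKM + 0.1), other scalings and filters, a mitochondrial covariate, a replicate block and leaving out each library. Relations used 100000 permutations within groups. No libraries were duplicates (smallest chi-square per degree of freedom within a group 33.7).

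The members, compartments, marker and partner lists were chosen with earlier results of these data known. Genes named with values are a panel by role, the 6 largest rises and falls among called members in DPL against L and the 4 largest in each other comparison, at a mean of at least 1 RPKM in the higher group. Genes outside this rule complete a family or are marked in the text.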

Additional observations from a re-analysis of the deposited data

Results flagged for a closer look

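For the 38 named chaperones, the highest and lowest library of each group were checked for a gap to the next library that was large against the group's range. Of 152 groups checked, 10 had such a library, where chance gives about 1 in 20. Replicate 18 of DLDPL was low for 4 of them: HSPH1 at 9.35 RPKM (others 39.8 to 73.4), DNAJA1 at 17.2 RPKM (others 57.1 to 99.4), HSPB8 at 486 RPKM (others 702 to 957) and DNAJA3 at 18.7 RPKM (others 22.9 to 25.1). In L, BAG3 was low in replicate 7 at 48.5 RPKM (others 74.6 to 107) and DNAJB5 low in replicate 2 at 11.5 RPKM (others 24.8 to 46.3). HSP90AB1 was high in the same L replicate 2 at 139 RPKM (others 70.0 to 91.9), and DNAJC3 was high in L replicate 10 at 9.04 RPKM (others 5.26 to 6.75). In DPL, DNAJB5 was high in replicate 30 at 119 RPKM (others 60.0 to 80.1) and DNAJC19 low in replicate 21 at 38.1 RPKM (others 50.4 to 64.5). Gaps at the high end weigh less on a log scale. Thus DNAJB4 in DPL replicate 11, at 497 RPKM with 238 next, was not listed.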

How the results depend on the processing

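Over 38 named chaperones, 266 changes and 7282 alternative values, 7011 kept direction and side of the threshold, 210 lost a call, 61 gained one and 0 reversed. Of 111 called changes, 74 held in every alternative run: 28 of 35 in DPL, 21 of 30 in LDPL and 22 of 27 in DLDPL against L, 3 of 9 against the midpoint, 0 of 3 in LDPL and 0 of 7 in DLDPL against DPL. Scaling to total reads without TMM moved the median change of all genes to -0.187 in DPL against L, -0.108 in LDPL against L and 0.15 in DLDPL against DPL, and the split of all called genes in DPL against L to 1321 higher and 3361 lower, in place of 2455 and 2418. In LDPL against L it was 1224 and 1961, in place of 1905 and 1888. Cytosolic counts in DPL against L were then 25 higher and 1 lower, and reticulum counts 4 and 4. Under limma on log2(RPKM + 1) the reticulum counts were 4 and 5.

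The mitochondrial count of 5 in DPL against L was 2 with total reads, 3 with the mitochondrial covariate and 2 by limma with either pseudocount. The reticulum count of 5 in DLDPL against L was 3 with total reads and by limma with either pseudocount. The 3 calls in LDPL against DPL were 0 with total reads, 0 without a filter, 5 at a mean of at least 50 reads, 0 with the covariate, 1 with only those groups, 7 by DESeq2 and 0 by limma with either pseudocount. The 7 in DLDPL against DPL were 1 with total reads, 3 with the covariate, 3 with only those groups, 14 by DESeq2 and 1 by limma with either pseudocount. The 12 against the midpoint were 5 with total reads and 7 by limma with either pseudocount. The cause was not tested.

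Leaving out 1 library gave 43 to 50 calls in DPL against L, 37 to 40 in LDPL against L, 31 to 36 in DLDPL against L, 3 to 5 in the reticulum for DLDPL against L (3 without DLDPL replicate 29), 0 to 4 in LDPL against DPL (0 without LDPL replicate 5, 9, 10 or 14, 1 without 8 or 24), 5 to 14 in DLDPL against DPL (14 without DPL replicate 19, 13 without DLDPL replicate 28), 0 to 0 in DLDPL against LDPL and 4 to 15 against the midpoint.

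LDPL and L share 5 replicate numbers, which do not pair the samples (correlations of deviations -0.101 to 0.0666). With the replicate block 29 chaperones were called in LDPL against L, 28 higher and 1 lower. The same 5 and 5 libraries without the block, a setting chosen after seeing the data, also gave 29, and the reticulum count was 3 in both, in place of 7. Depth limits members with few reads, such as FKBP10 with 986 over all libraries.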
